A study of Mus musculus with 38 samples.

Results

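Immediate early genes are switched on within minutes of a stimulus, without new protein synthesis. The 10 described here were Fos, Fosb, Jun, Junb, Egr1, Atf3, Ier2, Nr4a1, Dusp1 and Cyr61, chosen by name from the 29564 genes listed in the deposited tables, and all 10 had a row and passed the filter on low counts. Cyr61 is now called Ccn1. RNA was sequenced from left ventricle tissue of 38 mice, given in the labels as strain C57BL6 and genotype WT, with 1 library per mouse. The 8 non_failing controls received Vehicle, and the methods of the study give them standard chow. The other mice carried a model of heart failure with preserved ejection fraction (HFpEF), made with a high-fat diet and L-NAME, an inhibitor of nitric oxide synthase. Of these, 8 were given Vehicle (HFpEF+Veh), 11 were given TYA-018, a small molecule inhibitor of the deacetylase HDAC6 (HFpEF+TYA-018), and 11 were given Empagliflozin, an inhibitor of the kidney glucose transporter SGLT2 (HFpEF+SGLT2i). Treatment was oral and daily and began once the disease was present, and the series title gives its length as 3 months. The labels give the sex as Female and the methods of the study as male, and 4 Y-linked genes had counts in all 38 libraries. Age, time of day at tissue collection and any batch were not in the labels. For its experiment with these treatments the paper reports that pressure in the heart was measured with a catheter before the mice were euthanized. It does not link this procedure to single libraries, and the part of the procedure in the levels was not tested.

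The proteins fall into a few roles. Fos, Fosb, Jun and Junb are subunits of AP-1, a dimeric transcription factor, and Atf3 is a relative of these subunits that often acts as a repressor. Egr1 and Nr4a1 are further transcription factors, a zinc finger protein and an orphan nuclear receptor. Dusp1 is a phosphatase that switches off MAP kinases, Cyr61 is a secreted matrix protein, and Ier2 is a small nuclear protein of less well defined function. In the heart these genes are known to respond to stretch, adrenergic signals, growth factors and ischemia, and also to the handling of tissue. Their transcripts are short-lived, so a level records the time around collection. They are induced mainly through the serum response factor with its partners and through CREB, which binds the cAMP response element (CRE).

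A RefSeq promoter window (GRCm38.p6, 300 bases, from 250 before to 50 after the transcription start) was matched for 8 of the 10 genes, and Egr1 and Ier2 had no entry. The 4 windows below belong to the gene pairs Fos with Junb and Atf3 with Nr4a1, which varied together most closely among pairs with both windows. They run 5′ to 3′ on the strand of the gene, and capitals mark the CRE half-site TGACG or its reverse complement CGTCA. Fos is at chr12:85473640-85473939 on the plus strand, Junb at chr8:84978699-84978998 on the minus strand, Atf3 at chr1:191183284-191183583 on the minus strand and Nr4a1 at chr15:101266596-101266895 on the plus strand.
Fos: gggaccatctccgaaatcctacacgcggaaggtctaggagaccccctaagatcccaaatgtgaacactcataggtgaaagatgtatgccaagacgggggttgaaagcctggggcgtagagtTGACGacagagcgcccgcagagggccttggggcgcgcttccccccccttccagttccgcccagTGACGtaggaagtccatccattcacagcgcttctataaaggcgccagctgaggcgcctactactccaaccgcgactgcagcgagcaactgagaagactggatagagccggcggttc
Junb: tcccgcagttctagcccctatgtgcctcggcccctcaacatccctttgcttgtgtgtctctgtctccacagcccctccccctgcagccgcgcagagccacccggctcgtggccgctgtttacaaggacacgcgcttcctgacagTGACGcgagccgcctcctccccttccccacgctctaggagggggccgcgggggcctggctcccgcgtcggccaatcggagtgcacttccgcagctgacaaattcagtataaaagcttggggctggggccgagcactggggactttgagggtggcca
Atf3: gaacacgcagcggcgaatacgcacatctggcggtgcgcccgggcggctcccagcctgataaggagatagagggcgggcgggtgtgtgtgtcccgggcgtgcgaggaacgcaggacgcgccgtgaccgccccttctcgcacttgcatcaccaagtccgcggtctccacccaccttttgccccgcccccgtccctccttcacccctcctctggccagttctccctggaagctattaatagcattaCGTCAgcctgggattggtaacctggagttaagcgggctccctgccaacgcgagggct
Nr4a1: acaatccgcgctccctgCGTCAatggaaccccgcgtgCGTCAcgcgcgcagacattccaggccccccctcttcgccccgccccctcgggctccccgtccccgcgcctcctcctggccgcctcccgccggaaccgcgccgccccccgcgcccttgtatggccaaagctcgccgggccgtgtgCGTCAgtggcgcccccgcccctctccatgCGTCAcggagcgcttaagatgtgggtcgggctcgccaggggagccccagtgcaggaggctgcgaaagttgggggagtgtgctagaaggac

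In these windows Fos held 2 half-sites, the nearer at positions -66 to -62 from the start, Junb held 1 at -106 to -102, Atf3 held 1 at -7 to -3 and Nr4a1 held 4 between -233 and -36. The motif was searched on both strands, and Nr4a1 and Atf3 carried it on the strand opposite to the gene. Over all genes with a window, 7 of 8 held TGACG, in comparison with 20.8% of 32851 promoter windows of the same length, and Jun held none. The 8 windows were rich in G and C, at 57% to 72.3% of bases, against a median of 52.7%, and among the 12295 windows with at least 57% the share with TGACG was 30.8%. The full CRE palindrome TGACGTCA, which contains 2 overlapping half-sites, was in the Dusp1 window alone and in 1.79% of all windows. The AP-1 motif TGANTCA, on both strands, was in none of the 8 and in 7.81% of all windows. The CArG box bound by the serum response factor was in none of the 8 and in 1.63% of all windows. Sequence outside the windows was not searched, and Egr1 and Ier2 had no window. The absence of the box from these windows therefore does not show that the genes lack it. TATAAA on the gene strand was in the windows of Fos, Junb and Cyr61, and in 8.32% of all windows. These matches describe the letters in the windows and no binding was measured.

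The genes lie on 9 chromosomes of the GRCm38 assembly and all are protein-coding, with coordinates from GENCODE M21. Fos is at chr12:85473890-85477273, Fosb at chr7:19302696-19310051, Jun at chr4:95049034-95052222 and Junb at chr8:84974484-84978718. Egr1 is at chr18:34859823-34864984, Atf3 at chr1:191170296-191218039, Ier2 at chr8:84661331-84662852 and Nr4a1 at chr15:101254269-101274795. Dusp1 is at chr17:26505590-26562128 and Cyr61 at chr3:145646976-145649981. Junb and Ier2 share a chromosome.

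Libraries held 21.4 to 59.3 M expected counts (M for 1e6), and mitochondrially encoded genes took 32.7% ± 2.95 of them (SD, n = 38). All 8 cardiomyocyte markers were present in all 38 libraries, from 17 to 39.4 TPM for the calcium channel gene Ryr2 to 6930 to 13400 TPM for the ventricular myosin light chain gene Myl2. The libraries V2571, V2559 and V2523 were each left out as alternatives, alone and together. V2571, a HFpEF+SGLT2i library, was on average 1.02 above its group mean over the 10 genes on the log2 scale, the highest of 38. It was the highest library of all in Fos, Jun, Nr4a1 and Dusp1, the highest of its group in 8 genes, and above its group mean in 10 of 10. It was also shallow, with 22.1 M counts (rank 37 of 38), had 39% mitochondrial counts (rank 2), the lowest summed cardiomyocyte markers (18300 TPM) and the highest summed neutrophil (237 TPM) and endothelial (649 TPM) markers. V2559, a HFpEF+TYA-018 library, was 0.527 above its group mean over the 10 genes (rank 3) and the highest of its group in 6. The HFpEF+SGLT2i library V2565 deviated slightly more (0.57, rank 2) and the non_failing library V2509 slightly less (0.494, rank 4), so V2559 did not stand apart for these genes. V2523, a HFpEF+Veh library, was near its group mean for these genes (-0.0311, rank 19) but held transcripts of liver, with Alb at 493 TPM against at most 9.49 in the other vehicle libraries. Alb was also found in non_failing, with a median of 16.2 TPM and a highest level of 103 TPM, and was at most 2.78 TPM in the drug groups. The part of these properties in the results was not tested.

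Levels are given as TPM, a share of the transcripts in a library that is scaled by transcript length and so allows genes to be compared. The fold changes below come from counts with another scaling between libraries, so they need not match the ratio of mean TPM levels. Cyr61 had the highest median level over 38 libraries, 166 TPM, followed by Egr1 at 148, Ier2 at 111, Junb at 100, Dusp1 at 87.5, Nr4a1 at 81.8, Jun at 61, Fos at 39.9, Atf3 at 29.2 and Fosb at 4.86 TPM. Some neighbours in this order were separated in nearly every library. Egr1 was above Ier2 in 37 of 38, Jun above Fos in 35 and Atf3 above Fosb in 38. Other neighbours changed places between libraries, since Cyr61 was above Egr1 in 23 of 38, Junb above Dusp1 in 24, Dusp1 above Nr4a1 in 22 and Ier2 above Junb in 27. The lowest expected count behind any of these values was 123, for Fosb, so none was at the limit of detection.

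The genes differed in how far they spread within a group. Atf3 was the most variable, from 5.26 TPM in the HFpEF+SGLT2i library V2574 to 109 TPM in the HFpEF+Veh library V2526, with a within-group SD of 1.01 on the log2 CPM scale. Fosb had an SD of 0.77 and Nr4a1 of 0.64. The median SD over all 13765 genes tested was 0.27, and Atf3 was at percentile 94.8, Fosb at 92.1 and Nr4a1 at 88.6 of these SDs. Egr1 and Cyr61, the most abundant members, had the least spread, with SDs of 0.30 and 0.32 (percentiles 57.6 and 60.8). Without V2571 the SD of Fos in HFpEF+SGLT2i was 0.38 instead of 0.61, and that of Junb was 0.31 instead of 0.48.

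**Figure D1:**
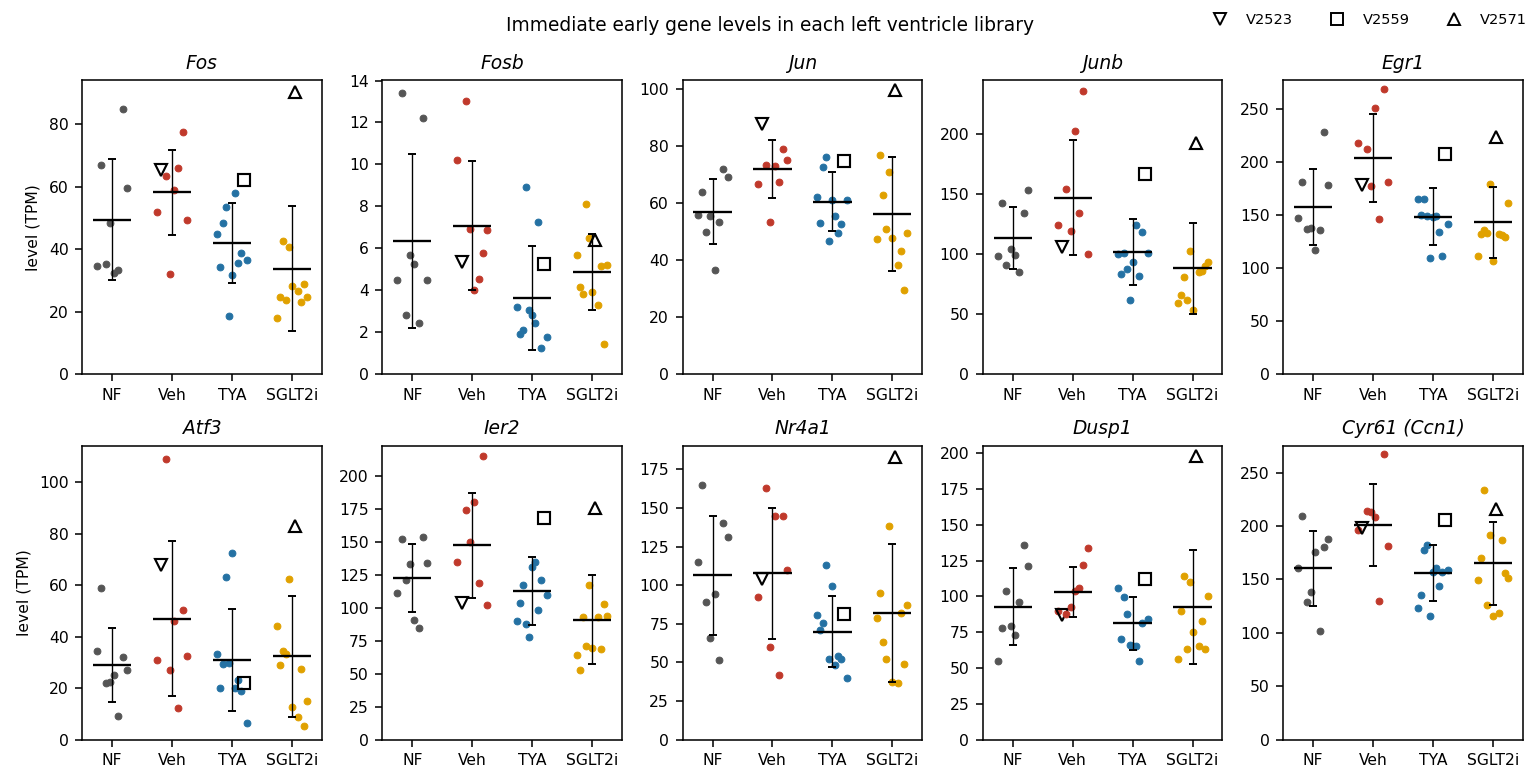
Level in TPM (vertical axis, from 0) of each immediate early gene in each library, by group (NF, non_failing, n = 8; Veh, HFpEF+Veh, n = 8; TYA, HFpEF+TYA-018, n = 11; SGLT2i, HFpEF+SGLT2i, n = 11), with horizontal bars at the mean and whiskers of 1 SD; open symbols mark V2523, V2559 and V2571. The groups overlap for every gene, and V2571 lies above the other HFpEF+SGLT2i libraries for 8 of 10 genes, at 90.3 TPM for Fos where the next library has 42.6.

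The first comparison asked what the disease model did to these genes in untreated hearts. None of the 10 genes passed the test, an edgeR quasi-likelihood test on counts with an adjusted p under 0.05, in comparison with 3.15% of all genes. The fitted values were higher in HFpEF+Veh for 9 genes and lower for Nr4a1, with a median log2 fold change of 0.18 against 0.01 over all genes tested, of which 47.7% were lower. The members tended to vary together from mouse to mouse, as described below. Counts of their signs, here and in the other comparisons, are therefore not counts of separate observations. An unadjusted p under 0.05 was reached by 1 gene, Egr1, in comparison with 15.9% of all genes, and DESeq2 also called 0 of 10, in comparison with 3.89% of all genes. In these bulk samples, fewer cells of a type and less RNA per cell cannot be told apart.

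Egr1 ranged from 117 to 228 TPM in non_failing (median 143) and from 146 to 269 TPM in HFpEF+Veh (median 196). The log2 fold change was 0.31 ± 0.15 (SE; edgeR quasi-likelihood test, adjusted p = 0.307), with 7 of 8 HFpEF+Veh libraries above the non_failing mean and the groups overlapping. Jun ranged from 36.6 to 72.1 TPM (median 55.7) in non_failing and from 53.4 to 88 TPM (median 73.4) in HFpEF+Veh. Its log2 fold change was 0.26 ± 0.17 (adjusted p = 0.471, edgeR), again with 7 of 8 libraries above. Cyr61, the secreted matrix protein, was at 160 ± 35 TPM (SD, n = 8) and 201 ± 38.2 TPM (SD, n = 8), with a log2 fold change of 0.19 ± 0.15. Atf3 had the largest fitted value, 0.61 ± 0.46, and the widest interval, -0.32 to 1.54 (95%). Its levels ran from 9.28 to 58.9 TPM in non_failing and from 12.3 to 109 TPM in HFpEF+Veh, where V2526 was the highest and V2523 second at 67.9 TPM. Without V2526 the Atf3 value was 0.29, without V2523 it was 0.52 ± 0.48, and without the non_failing library V2502 it was 0.82. Fos, Fosb, Junb, Ier2, Nr4a1 and Dusp1 had values between -0.08 and 0.21, and those of Fosb, Nr4a1 and Dusp1 were of either sign according to the library left out. Without V2530 the values of Fos, Junb and Ier2 were 0.06, 0.11 and 0.07 instead of 0.13, 0.21 and 0.16, Fos was at 0.27 without V2509, and Cyr61 was at 0.12 without V2508.

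The second comparison asked what TYA-018 did in diseased hearts. All 10 genes had a lower fitted level with TYA-018 than with vehicle, by a median of -0.36 on the log2 scale, against -0.01 for all genes tested, of which 51.8% were lower. Since the members varied together, these are not 10 separate observations. None of the 10 passed the test, in comparison with 1.93% of all genes. An unadjusted p under 0.05 was reached by Fosb, Junb and Egr1, 3 of 10, in comparison with 17.5% of all genes, and DESeq2 called 0 of 10, in comparison with 3.16%.

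Fosb showed the largest difference. It ranged from 3.99 to 13 TPM in HFpEF+Veh (median 6.31) and from 1.24 to 8.91 TPM in HFpEF+TYA-018 (median 2.8), with V2548 and V2552 the highest of the treated libraries. The log2 fold change was -0.87 ± 0.34 (adjusted p = 0.161, edgeR), and 9 of 11 treated libraries were below the vehicle mean. Egr1 ranged from 110 to 208 TPM in HFpEF+TYA-018 (median 149), where V2559 was the highest and V2549 the lowest. Its log2 fold change was -0.38 ± 0.14 (adjusted p = 0.132, edgeR), with 10 of 11 libraries below the vehicle mean. Junb ranged from 100 to 235 TPM in HFpEF+Veh (median 129) and from 61.5 to 166 TPM in HFpEF+TYA-018 (median 100). Its log2 fold change was -0.40 ± 0.18 (adjusted p = 0.246, edgeR), with 10 of 11 libraries below. The highest Junb level of the treated group was again that of V2559. Nr4a1 was at 108 ± 42.5 TPM (SD, n = 8) with vehicle and 69.7 ± 22.9 TPM (SD, n = 11) with TYA-018. Its fitted log2 fold change was -0.48 ± 0.28 (adjusted p = 0.366, edgeR). Atf3 had a value of -0.48 ± 0.42 and Fos of -0.34 ± 0.23, while Ier2, Cyr61, Dusp1 and Jun had values from -0.23 to -0.16. The Atf3 value rested largely on the vehicle library V2526, without which it was -0.16. Ier2 was at -0.14 without V2530 and Dusp1 at -0.10 without V2532, both vehicle libraries.

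Leaving out V2559 moved the values further from 0 for 9 genes, for example to -0.45 ± 0.13 for Egr1 (adjusted p = 0.0649, edgeR), and Atf3 moved to -0.44. None passed, in comparison with 1.7% of all genes. Leaving out V2523 gave -0.42 ± 0.14 for Egr1 and -0.92 ± 0.35 for Fosb, and none passed, in comparison with 1.42%. With V2523, V2559 and V2571 all left out, Egr1 (-0.49 ± 0.12, adjusted p = 0.0296, edgeR) and Junb (-0.55 ± 0.15, adjusted p = 0.0376, edgeR) passed the test, 2 of 10 in comparison with 2.64% of all genes. V2559 was the highest library of its group in 6 genes, so its removal lowers the mean and the spread of the group by construction. With library sizes alone in place of TMM scaling, which moved the median of all genes by -0.13, Egr1 passed at -0.50 ± 0.14 (adjusted p = 0.0216, edgeR), 1 of 10 in comparison with 7.96% of all genes. Relative to that shift its value was close to that in the main scaling.

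The third comparison asked what Empagliflozin did in diseased hearts. All 10 genes had a lower fitted level with Empagliflozin than with vehicle, by a median of -0.44 on the log2 scale, against 0.01 for all genes, of which 48.4% were lower. Here too the 10 genes are not separate observations. The sign of Dusp1, at -0.03, turned in 6 of 38 fits that left out 1 library, to 0.05 without V2532. None passed the test when all libraries were used, in comparison with 0.85% of all genes. Fos, Junb, Egr1 and Ier2 had an unadjusted p under 0.05, 4 of 10 in comparison with 10% of all genes, and DESeq2 called 1, Ier2 (adjusted p = 0.0398), in comparison with 1.44%. Ier2 also passed in edgeR without the filter on low counts, in comparison with 2.09%, and with library sizes alone, together with Egr1, in comparison with 1.08%. The HFpEF+SGLT2i and HFpEF+TYA-018 comparisons share the 8 vehicle libraries and are not independent of each other.

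Ier2 ranged from 102 to 215 TPM in HFpEF+Veh (median 143) and from 52.9 to 176 TPM in HFpEF+SGLT2i (median 93). V2571 was at 176 TPM and the next highest treated library at 117 TPM. The log2 fold change was -0.60 ± 0.17 (adjusted p = 0.1, edgeR), with 10 of 11 libraries below the vehicle mean. Junb ranged from 53.1 to 192 TPM in HFpEF+SGLT2i (median 84.8), with V2571 the highest and V2565 next at 102 TPM. Its log2 fold change was -0.61 ± 0.18 (adjusted p = 0.119, edgeR). Fos ranged from 32.2 to 77.7 TPM with vehicle (median 61.4) and from 18.1 to 90.3 TPM with Empagliflozin (median 26.5), with V2571 at 90.3 TPM above every vehicle library. Its log2 fold change was -0.67 ± 0.23 (adjusted p = 0.221, edgeR). Egr1 ranged from 107 to 224 TPM in HFpEF+SGLT2i (median 132) and had a log2 fold change of -0.45 ± 0.14 (adjusted p = 0.133, edgeR). For each of these 4 genes, 10 of 11 treated libraries lay below the vehicle mean and 1 above it.

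The other members had smaller or less certain values. Fosb was at -0.47 ± 0.34, Atf3 at -0.43 ± 0.42, Nr4a1 at -0.29 ± 0.28 and Jun at -0.28 ± 0.16 on the log2 scale. Without the vehicle library V2526 these values were -0.25 for Fosb, -0.11 for Atf3 and -0.17 for Nr4a1. Leaving out V2571 instead moved Nr4a1 the other way, to -0.47. Cyr61 was at -0.16 ± 0.14 and Dusp1 at -0.03 ± 0.18, with 95% intervals of -0.45 to 0.13 and -0.40 to 0.34. The Cyr61 value was -0.1 without V2530 and -0.24 without V2529. Dusp1, the MAP kinase phosphatase, was at 103 ± 17.4 TPM (SD, n = 8) with vehicle and 92.5 ± 40 TPM (SD, n = 11) with Empagliflozin, the second mean including 198 TPM in V2571.

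Without V2571, 4 genes passed the test and were lower in HFpEF+SGLT2i than in HFpEF+Veh, in comparison with 1.22% of all genes. They were Fos at -0.92 ± 0.20 (adjusted p = 0.0102, edgeR), Junb at -0.78 ± 0.16 (adjusted p = 0.00501), Ier2 at -0.74 ± 0.16 (adjusted p = 0.00896) and Egr1 at -0.54 ± 0.13 (adjusted p = 0.0275). The mean level of Fos in the 10 remaining treated libraries was 28.2 ± 7.74 TPM (SD) instead of 33.8 ± 20.1 TPM over 11, and that of Junb was 77.7 ± 16.5 instead of 88.1 ± 37.9 TPM. The ranges of treated and vehicle libraries still overlapped, at 18.1 to 42.6 against 32.2 to 77.7 TPM for Fos. V2571 was singled out with these values known and was the highest library of its group in 8 genes, so leaving it out lowers the group means by construction. Its removal left the other 6 genes short of the threshold, with Jun at -0.39 ± 0.14 (adjusted p = 0.203, edgeR) and Atf3 at -0.66 ± 0.42, which leaving out V2526 instead moved the other way, to -0.11. Leaving out V2532, the lowest vehicle library for Ier2, also let Ier2 pass (-0.67 ± 0.18, adjusted p = 0.0479, edgeR), in comparison with 1.27% of all genes. Without V2523 none passed, in comparison with 0.0145%, with Ier2 at -0.66 ± 0.18 (adjusted p = 0.141, edgeR). With V2523, V2559 and V2571 all left out, Junb (adjusted p = 0.019), Ier2 (adjusted p = 0.0191) and Egr1 (adjusted p = 0.0448) passed in edgeR, 3 of 10 in comparison with 0.109% of all genes, and Fos was at 0.0602.

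**Figure D2:**
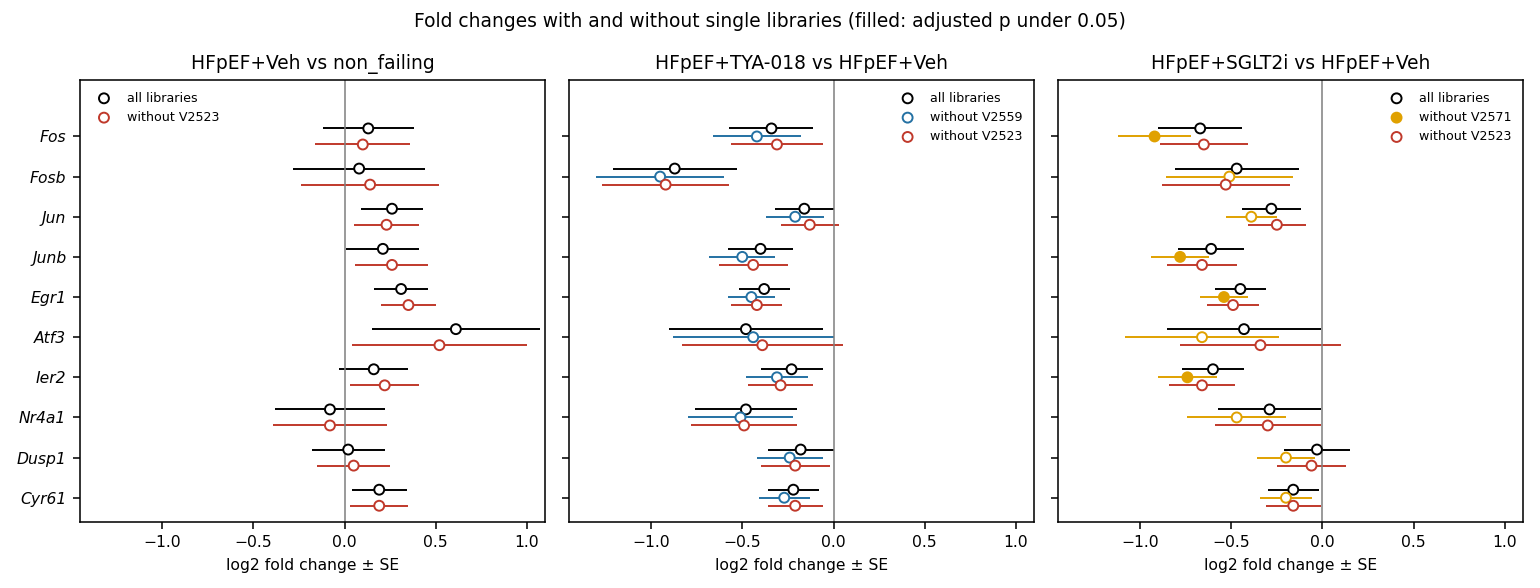
Log2 fold change of each immediate early gene (horizontal axis, with bars of 1 SE) in 3 comparisons, with all 38 libraries (black) and without V2559 (blue), V2571 (yellow) or V2523 (red); filled points have an adjusted p under 0.05. All 10 black points lie below 0 in both drug comparisons, and only the yellow points of Fos, Junb, Egr1 and Ier2, from -0.92 to -0.54, are filled.

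Markers of other cells moved with these comparisons, and their part in the results was not tested. With Empagliflozin against vehicle all 5 neutrophil markers tested had higher values, with a median of 2.18, all 5 with an unadjusted p under 0.05 and none called. The summed neutrophil level was 10.5 to 237 TPM with Empagliflozin (median 19.2) and 2.59 to 20.8 TPM with vehicle (median 8.88). The level of 237 TPM was that of V2571. All 5 erythroid markers were lower, with a median of -0.88, all 5 with an unadjusted p under 0.05 and none called, summing to 4720 to 16000 TPM with Empagliflozin and 5780 to 41900 TPM with vehicle. Of the fibroblast markers 5 of 7 were lower (median -0.14, 3 with an unadjusted p under 0.05) and none was called, and the 1 skeletal muscle marker tested was called lower (-1.53). The 6 listed skeletal muscle markers summed to 0.754 to 40.3 TPM with vehicle, with a median of 1.45 TPM. With Empagliflozin the sum was 0.537 to 1.61 TPM, with a median of 1.11 TPM. All 8 hepatocyte markers were called lower in both drug comparisons with vehicle, where 1.93% and 0.85% of all genes were called. They summed to 1020 TPM in V2523, with a median of 4.93 TPM over the 8 vehicle libraries, to 1.66 to 3.55 TPM with TYA-018, to 2.01 to 8.4 TPM with Empagliflozin and to 19.4 to 265 TPM in non_failing. No marker was at 0 in all libraries. In HFpEF+TYA-018 against HFpEF+Veh the 7 endothelial markers were lower by a median of -0.13, 2 with an unadjusted p under 0.05 and none called. The summed endothelial level was 279 to 449 TPM with TYA-018 and 366 to 561 TPM with vehicle. In that comparison 7 of 8 cardiomyocyte markers had higher values (median 0.18, 4 with an unadjusted p under 0.05) and 6 of 7 fibroblast markers had lower values (median -0.18, 2 with an unadjusted p under 0.05). All 5 neutrophil markers had higher values (median 0.74), none with an unadjusted p under 0.05, and no marker of these 3 lists was called. Cardiomyocyte markers, with 4 of 8 called lower in comparison with 3.15% of all genes, had a median of -0.36 in HFpEF+Veh against non_failing. They summed to 23400 to 27900 TPM in HFpEF+Veh and 24300 to 34400 TPM in non_failing. In the same comparison 2 of 7 fibroblast markers were called higher (median 0.28) and 2 of 8 pericyte and smooth muscle markers were called lower (median 0.05). All 5 erythroid markers had higher values with an unadjusted p under 0.05 (median 1.26) and none was called. The 1 adipocyte marker tested (0.69) and 1 of 4 atrial markers were called higher.

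The 2 drugs were also compared with each other, which are not related in structure and were given at different doses. None of the 10 genes passed, and 5 had higher and 5 lower fitted values in HFpEF+TYA-018, with a median of 0.01. No gene at all was called in edgeR (0%), although 1821 genes (13.2%) had an unadjusted p under 0.05, Ier2 alone among the 10. DESeq2 called 184 genes (1.61%), none of them among the 10. Ier2 had the lowest p of the members, with 113 ± 25.7 TPM (SD, n = 11) with TYA-018 and 91.1 ± 34 TPM (SD, n = 11) with Empagliflozin. The log2 fold change was 0.37 ± 0.16 (adjusted p = 0.316, edgeR; 95% interval 0.04 to 0.70), and 10 of 11 HFpEF+TYA-018 libraries were above the HFpEF+SGLT2i mean. Fos was at 0.34 ± 0.22 and Junb at 0.22 ± 0.17, while Fosb was at -0.40 ± 0.31. These values moved with single libraries. Without V2571 Fos was at 0.58, Junb at 0.38 and Ier2 at 0.50, and without V2559 they were at 0.25, 0.11 and 0.29. Fosb was at -0.62 without V2548. None of the 10 passed in any of these fits. In this comparison all 5 neutrophil markers had lower values with TYA-018 (median -1.39, all 5 with an unadjusted p under 0.05) and all 5 erythroid markers had higher values (median 0.76, 3 with an unadjusted p under 0.05). None was called, and their part in these differences was not tested. Egr1 was close in both groups, with 148 ± 26.9 and 143 ± 33.5 TPM (SD, n = 11 each) and an interval of -0.18 to 0.33 for the log2 fold change. The interval of Atf3, -0.85 to 0.74, leaves room for a difference in either direction.

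Each drug group was set against the non_failing hearts to see how the treated levels lay next to those of healthy mice. In HFpEF+TYA-018, 8 of 10 genes had lower fitted values than in non_failing, with a median of -0.12, where 49% of all genes were lower. None passed, in comparison with 7.39% of all genes. Fosb at -0.79 ± 0.34 (adjusted p = 0.152, edgeR) and Nr4a1 at -0.57 ± 0.28 (adjusted p = 0.222, edgeR) had an unadjusted p under 0.05, 2 of 10 in comparison with 22% of all genes. Nr4a1, the orphan nuclear receptor, was at 106 ± 38.5 TPM (SD, n = 8) in non_failing. In HFpEF+SGLT2i, 8 of 10 had lower fitted values, with a median of -0.26, where 48.7% of all genes were lower. None passed, in comparison with 6.45% of all genes. Fos (-0.55 ± 0.23), Ier2 (-0.44 ± 0.17) and Junb (-0.40 ± 0.18) had an unadjusted p under 0.05, 3 of 10 in comparison with 19.6% of all genes. DESeq2 called 0 of 10 in both comparisons, in comparison with 8.81% with TYA-018 and 7.77% with Empagliflozin. Without V2571 the same 3 genes passed, in comparison with 5.8% of all genes: Fos at -0.79 ± 0.20 (adjusted p = 0.0127, edgeR), Ier2 at -0.58 ± 0.16 (adjusted p = 0.0234, edgeR) and Junb at -0.56 ± 0.16 (adjusted p = 0.0265, edgeR). They also passed with V2523, V2559 and V2571 all left out, in comparison with 6.28%. Markers of other cells moved with both comparisons of a drug group with non_failing, and their part was not tested. With TYA-018, 8 of 8 hepatocyte markers were called lower (median -5.58), in comparison with the 7.39% of all genes called. All 5 erythroid markers had higher values with an unadjusted p under 0.05 (median 1.07) and 1 was called. The 1 adipocyte marker tested (0.96), 1 of 7 fibroblast, 1 of 4 atrial and 1 of 8 pericyte and smooth muscle markers were called higher, and 1 of 8 cardiomyocyte, 1 of 8 pericyte and smooth muscle and 1 of 4 Schwann cell markers lower. With Empagliflozin and all libraries 7 of 8 hepatocyte markers (median -4.99) and 4 of 8 cardiomyocyte markers (median -0.28) were called lower, in comparison with the 6.45% of all genes called. All 5 neutrophil markers had higher values (median 1.8), 4 with an unadjusted p under 0.05 and none called. Their sums were 1.29 to 33.4 TPM in non_failing (median 4.88) and 10.5 to 237 TPM with Empagliflozin (median 19.2), with V2571 at 237 TPM. The 1 adipocyte marker tested (0.90) and 1 of 4 atrial markers were called higher, and of 7 fibroblast markers 1 was called higher and 1 lower. In non_failing the levels were 49.5 ± 19.4 TPM for Fos, 123 ± 25.9 TPM for Ier2 and 113 ± 25.8 TPM for Junb (SD, n = 8). Jun, Dusp1 and Cyr61 were within 0.03 of 0 on the log2 scale in HFpEF+SGLT2i against non_failing with all libraries. The 3 comparisons with non_failing share its 8 libraries.

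The 10 genes were next compared across libraries after the mean of each group had been removed, to see which deviated together from mouse to mouse. All 45 pairs were positively correlated, with Pearson's r from 0.07 to 0.85 and a median of 0.54 over 38 libraries. In permutations of libraries within groups, 35 of 45 pairs had an adjusted p under 0.05. The share among pairs of other genes was not computed. Junb and Egr1 were the closest pair (r = 0.85, Spearman's rho = 0.79). They were followed by Atf3 and Nr4a1 (r = 0.84, rho = 0.81), Junb and Ier2 (r = 0.82, rho = 0.79), Fos and Junb (r = 0.77, rho = 0.73) and Egr1 and Ier2 (r = 0.75, rho = 0.68). For each of these 5 pairs the permutation p of r was 1e-05, the smallest that 100000 permutations can give, and the adjusted p was 5.62e-05. Without the 2 libraries farthest from the median, r was 0.79 for Junb with Egr1, 0.85 for Atf3 with Nr4a1, 0.73 for Junb with Ier2, 0.66 for Fos with Junb and 0.65 for Egr1 with Ier2.

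Over all 38 libraries Fosb was less closely tied to part of the set. Its r was 0.07 with Dusp1 (permutation p = 0.671, adjusted p = 0.671), 0.12 with Junb (permutation p = 0.477, adjusted p = 0.488) and 0.13 with Ier2 (permutation p = 0.427, adjusted p = 0.447). With Atf3 it was 0.62 (rho = 0.53, permutation p = 4e-05, adjusted p = 0.00012). The low values came from the HFpEF groups for Junb and Ier2. In the 8 non_failing libraries Fosb had an r of 0.71 with Junb and of 0.82 with Ier2, and in the 3 HFpEF groups of -0.14 to 0.14 and -0.17 to 0.19. This difference between groups was not tested. Atf3 in turn had an r of 0.24 with Dusp1 (permutation p = 0.186, adjusted p = 0.199). Within single groups the median r of the 45 pairs was 0.66 in non_failing, 0.45 in HFpEF+Veh, 0.49 in HFpEF+TYA-018 and 0.65 in HFpEF+SGLT2i, or 0.53 without V2571. With V2523, V2559 and V2571 left out, 27 pairs had an adjusted p under 0.05 and the median r was 0.47. The points are libraries that share depth and dissection, and the members' mean had an r of 0 with log2 depth and of 0.21 with the mitochondrial share, or 0.15 and 0.05 in turn without V2571.

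**Figure D3:**
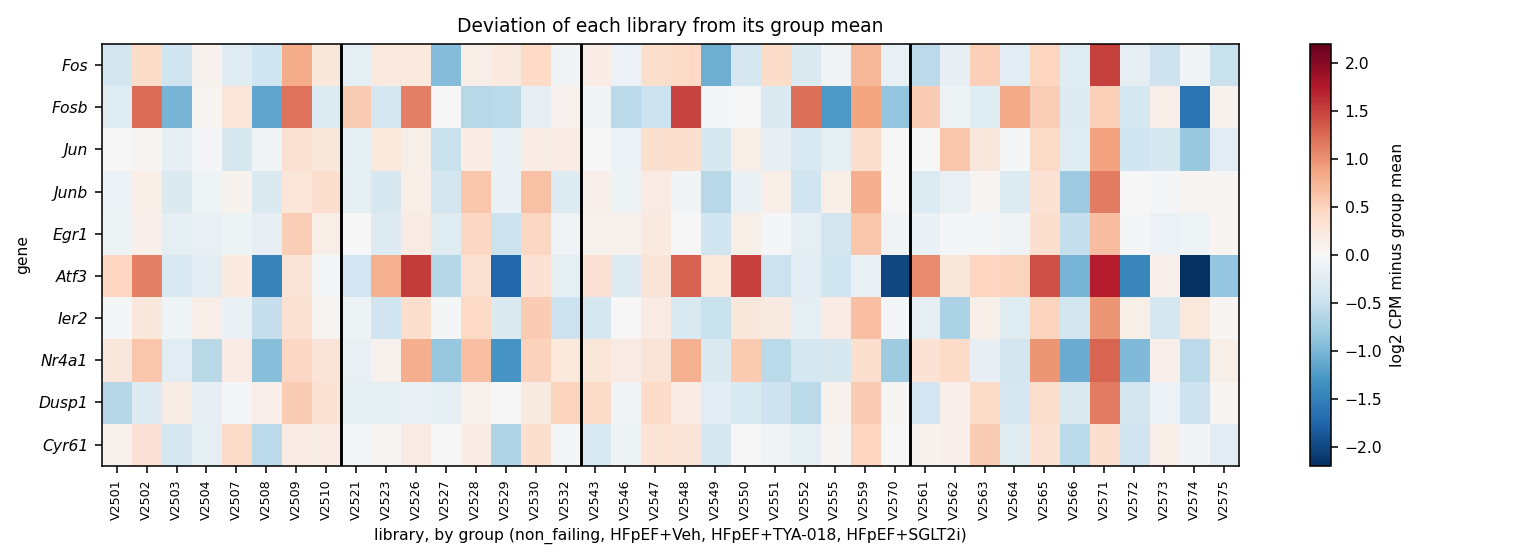
Deviation of log2 CPM from the group mean (color scale) for each immediate early gene (rows) in each of the 38 libraries (columns, by group, with black lines between groups). V2571 and V2565 are above their group mean for 10 of 10 genes, as is V2509, while V2566 is above its own for 0, and Atf3 has the strongest colors.

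**Figure D4:**
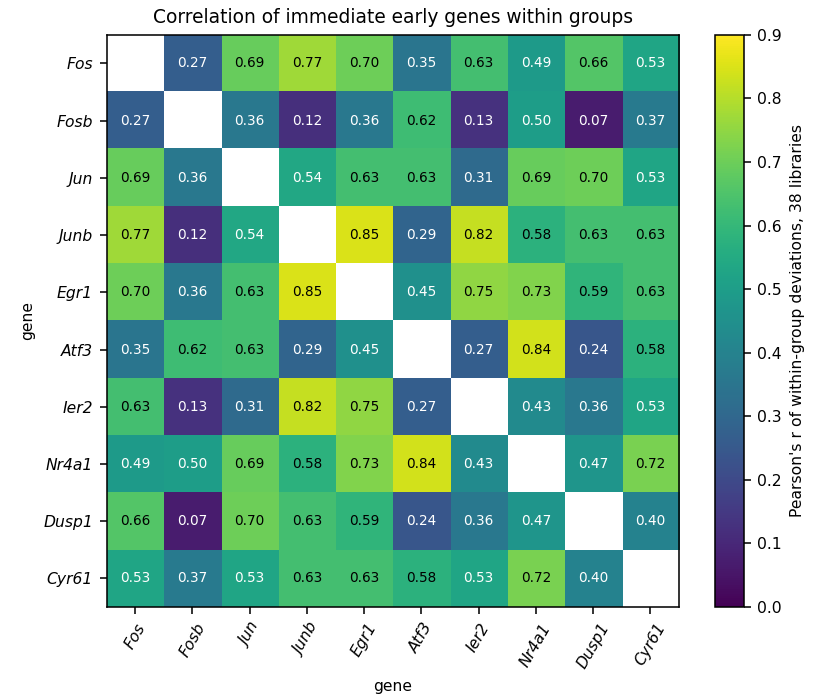
Pearson's r of the within-group deviations of log2 CPM for each pair of immediate early genes over 38 libraries (color scale and printed values, diagonal left empty). Values are highest for Junb with Egr1 (0.85), Atf3 with Nr4a1 (0.84), Junb with Ier2 (0.82) and Fos with Junb (0.77), and lowest for Fosb with Dusp1 (0.07).

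Other genes followed the same pattern from mouse to mouse. Of 11112 genes compared, the 10 with the highest r with the members' mean, by the same within-group deviations over 38 libraries, were Btg2 (0.84), Ppp1r15a (0.83), Apold1 (0.80), Actg1 (0.73), Adamts1 (0.73), Sik1 (0.73), Arl4d (0.73), Nr4a2 (0.71), Cxcl1 (0.71) and Nfkbiz (0.69). Btg2 is an antiproliferative gene, Ppp1r15a encodes GADD34, a regulator of the integrated stress response, Sik1 is a kinase induced by cAMP, Nr4a2 is a relative of Nr4a1 and Cxcl1 is a chemokine. These r values are a description, given without a p. Without V2571 they were 0.81 for Btg2, 0.78 for Ppp1r15a, 0.75 for Apold1 and 0.61 to 0.69 for the other 7. V2571 was the highest library for all but Nr4a2 and Cxcl1, for example at 143 TPM for Btg2, 27.8 TPM for Ppp1r15a and 101 TPM for Apold1. None of the 10 was called in any comparison; Adamts1, a secreted metalloproteinase, came nearest at -0.61 (adjusted p = 0.0601, edgeR) in HFpEF+TYA-018 against HFpEF+Veh, with means of 15.4 and 25 TPM. An r above 0.5 was found for 47 of the 11112 genes, and 18 of these were among the 99 compared genes of the pathway lists below. The median r over the 11112 genes was -0.01.

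The genes around the members were read from 5 lists: 12 other AP-1 and small Maf family genes, 46 other early response genes, 15 MAP kinase phosphatases and feedback inhibitors, 26 upstream kinases and transcription factors, and 10 CCN family and YAP target genes. The other early response genes are closest to the members, since they answer the same signals. In HFpEF+Veh against non_failing, 3 of 45 tested passed and all were higher, in comparison with the 3.15% of all genes called. Gadd45g, a growth arrest gene induced by stress, rose from 17.7 ± 3.3 TPM (SD, n = 8) to 44.1 ± 14 TPM (SD, n = 8). Its fitted log2 fold change was 1.18 ± 0.19 (adjusted p = 0.000275, edgeR). All 8 HFpEF+Veh libraries were above the non_failing mean. Hbegf, a growth factor that binds the EGF receptor, rose by 0.74 ± 0.18 on the log2 scale (adjusted p = 0.0176, edgeR) and Ier5 by 0.63 ± 0.18 (adjusted p = 0.044, edgeR).

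With TYA-018, 39 of 45 other early response genes had lower fitted values than in HFpEF+Veh, with a median of -0.19, where 51.8% of all genes were lower. Of the 45, 1 passed, in comparison with 1.93% of all genes. This was Hbegf, at 5.73 ± 2.17 TPM (SD, n = 8) with vehicle and 3.35 ± 0.571 TPM (SD, n = 11) with TYA-018. Its fitted log2 fold change was -0.62 ± 0.17 (adjusted p = 0.041, edgeR), with 11 of 11 libraries below the vehicle mean. With Empagliflozin, 32 of 45 had lower fitted values, with a median of -0.16, where 48.4% of all genes were lower. None passed, in comparison with 0.85% of all genes. Ier5l had the lowest p, at -0.55 ± 0.15 (adjusted p = 0.0717, edgeR). Between the drugs 17 of 45 had higher fitted values in HFpEF+TYA-018. None passed, in comparison with 0% of all genes, with Ier5l at 0.45 ± 0.14 (adjusted p = 0.134, edgeR). Against non_failing 1 of 45 passed in HFpEF+TYA-018, in comparison with 7.39% of all genes, and 3 of 45 in HFpEF+SGLT2i, in comparison with 6.45%. Gadd45g was above the non_failing mean in every library of both drug groups, at 30.1 ± 5.4 TPM with TYA-018 and 31.9 ± 11.5 TPM with Empagliflozin (SD, n = 11 each). Its log2 fold change was 0.78 ± 0.18 (adjusted p = 0.0055, edgeR) and 0.82 ± 0.18 (adjusted p = 0.00344, edgeR). With Empagliflozin, Ier5l (-0.76 ± 0.15, adjusted p = 0.000854, edgeR) and Phlda1 (-0.51 ± 0.15, adjusted p = 0.0367, edgeR) fell against non_failing.

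The other AP-1 and small Maf family genes supply partners for Fos and Jun proteins. Of 11 tested, none passed in HFpEF+Veh against non_failing, in HFpEF+TYA-018 or HFpEF+SGLT2i against HFpEF+Veh, or between the drugs. Of all genes, 3.15%, 1.93%, 0.85% and 0% were called there in turn. The medians of the 11 were -0.02, -0.07, 0.02 and -0.09. The lowest p belonged to Mafg (0.36 ± 0.13), Mafk (-0.27 ± 0.13), Batf (-0.43 ± 0.24) and Mafk (-0.25 ± 0.12) in turn. Against non_failing 1 of 11 passed in each drug group, in comparison with 7.39% and 6.45% of all genes. Atf7 fell in HFpEF+TYA-018 (-0.27 ± 0.08, adjusted p = 0.0389, edgeR). Mafg, a small Maf protein, rose in HFpEF+SGLT2i (0.50 ± 0.12, adjusted p = 0.0106, edgeR).

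The MAP kinase phosphatases and feedback inhibitors, among them Dusp1's relatives, damp the signals that induce the members. None of 15 passed in the first 4 comparisons, in comparison with 3.15%, 1.93%, 0.85% and 0% of all genes in turn. The medians were -0.03, -0.11, -0.01 and -0.05. The lowest p belonged to Nab2 (-0.37 ± 0.14), Dusp8 (-0.31 ± 0.14), Dusp10 (0.43 ± 0.18) and Spred2 (-0.19 ± 0.09) in turn. Against non_failing 1 of 15 passed in each drug group, in comparison with 7.39% and 6.45% of all genes. Nab2, a corepressor that binds EGR1, fell against non_failing with TYA-018 (-0.51 ± 0.13, adjusted p = 0.00888, edgeR) and with Empagliflozin (-0.60 ± 0.13, adjusted p = 0.00205, edgeR). Its level was 4.43 ± 1.97 TPM in non_failing (SD, n = 8), and 3 ± 0.48 and 2.94 ± 0.656 TPM in the drug groups (SD, n = 11 each).

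The upstream kinases and transcription factors carry the signal to the members. Of 25 tested, none passed in the first 4 comparisons, in comparison with 3.15%, 1.93%, 0.85% and 0% of all genes in turn. The medians lay between -0.05 and 0.03. The lowest p belonged to Mapk14 (0.14 ± 0.06), Map2k2 (0.17 ± 0.06), Crem (-0.32 ± 0.09) and Mkl2 (-0.34 ± 0.09) in turn. Against non_failing, 3 passed in HFpEF+TYA-018, in comparison with 7.39% of all genes. The kinase gene Map2k2, which encodes MEK2, rose (0.25 ± 0.06, adjusted p = 0.00465, edgeR). Mapk8, which encodes JNK1, fell (-0.21 ± 0.06, adjusted p = 0.0212, edgeR), and Crem, a CREB relative with repressor isoforms, fell (-0.30 ± 0.09, adjusted p = 0.0432, edgeR). In HFpEF+SGLT2i 4 passed, in comparison with 6.45%. Mapk14, which encodes p38 alpha, rose (0.31 ± 0.05, adjusted p = 0.000188, edgeR), as did Mkl2, a coactivator of the serum response factor (0.36 ± 0.10, adjusted p = 0.0204, edgeR). Crem (-0.50 ± 0.09, adjusted p = 0.000591, edgeR) and Mapk8 (-0.19 ± 0.06, adjusted p = 0.0404, edgeR) fell.

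The CCN family and YAP target genes surround Cyr61. None of 10 passed in HFpEF+Veh against non_failing, in comparison with 3.15% of all genes. The median was 0.14 and Nov, or Ccn3, had the lowest p (0.48 ± 0.17). In HFpEF+TYA-018 against HFpEF+Veh 9 of 10 had lower fitted values, with a median of -0.18, where 51.8% of all genes were lower. Amotl1, which binds the coactivator YAP, was the 1 of 10 that passed, in comparison with 1.93% of all genes. Its level was 6.09 ± 0.771 TPM (SD, n = 8) with vehicle and 4.68 ± 0.586 TPM (SD, n = 11) with TYA-018. The fitted log2 fold change was -0.22 ± 0.06 (adjusted p = 0.048, edgeR). With Empagliflozin 10 of 10 had lower fitted values with a median of -0.15, where 48.4% of all genes were lower. None passed, in comparison with 0.85% of all genes, with Nov at -0.53 ± 0.15 (adjusted p = 0.0997, edgeR). Wisp2, or Ccn5, was at 0.62 ± 0.23 between the drugs. It was the 1 of 10 that passed in HFpEF+TYA-018 against non_failing, in comparison with 7.39% of all genes, and rose there (0.81 ± 0.26, adjusted p = 0.0454, edgeR). In HFpEF+SGLT2i against non_failing none passed, in comparison with 6.45% of all genes, and Lats2, a kinase that restrains YAP, had the lowest p (-0.24 ± 0.09).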

How the data were processed

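RNA was sequenced from the left ventricle of 38 mice in 4 groups, taken from the sample titles. The authors trimmed reads with fastp and used Salmon 1.6.0 (from the submitters' processing notes) and tximport to obtain gene-level values. The expected counts they deposited are estimated reads per gene. The deposited TPM values are scaled for transcript length and depth, as the authors computed them, and a deposited table gives effective lengths in bases. The methods name the GRCm38 assembly with GENCODE, whereas the labels name a human build. Labels and methods also differ on read length, pairing, sex and length of treatment. Promoter sequences are from RefSeq GRCm38.p6.

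Rounded expected counts entered edgeR 4.0.16 (quasi-likelihood test, R 4.3.3) after filterByExpr (13765 genes) and TMM scaling, in 1 model of 4 groups with 6 contrasts. The test is two-sided, p-values were adjusted by Benjamini-Hochberg across the 13765 genes, and calls required an adjusted p under 0.05. The error given with a fold change is its SE. Libraries above or below a group mean were counted on log2 CPM with a prior count of 2, and correlations used the same values. The 45 pairs were tested with 100000 two-sided permutations within groups and adjusted over the pairs. Levels are TPM as deposited, without the TMM scaling that the fold changes carry. Intervals are at 95%. The scripts were tested on simulated data.

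Alternatives were DESeq2 1.42.0, no filter, library size alone, limma 3.58.1 on log2(TPM + 1), a length offset, a robust spread, 2-group fits, 1 surrogate variable (sva 3.50.0), each library left out in turn, and V2523, V2559 and V2571 left out together. Named genes were all 10 members, the called genes of each pathway list or, with none called, its gene with the lowest p, and the 10 genes most like the members' mean whose average log2 CPM reached 1. The members, the lists and the libraries in doubt were chosen with earlier results of these data known. Marker lists of other cell types are described where a marker was called, and lists with none called are given in part. Figures were drawn with matplotlib 3.10.9.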

Additional observations from a re-analysis of the deposited data

How the results depend on the processing

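No paired analysis was possible, because each mouse, by the number in its sample title, belonged to 1 group. The number of immediate early genes called was 0 in each of the 6 comparisons with all libraries. In HFpEF+SGLT2i against HFpEF+Veh it was 1 with DESeq2, 1 without a filter on low counts (Ier2 in both), 2 with library size alone (Egr1 and Ier2) and 3 without V2523, V2559 and V2571, and from 0 to 4 when single libraries were left out, 4 without V2571 and 1 without V2532. In HFpEF+TYA-018 against HFpEF+Veh it was 1 with library size alone (Egr1) and 2 without the 3 libraries. In HFpEF+SGLT2i against non_failing it was 3 without the 3 libraries, and from 0 to 3 when single libraries were left out, 3 without V2571. It stayed at 0 under limma, the length offset, the robust spread, the 2-group fits and 1 surrogate variable, whose r with the members' mean was -0.02. For HFpEF+SGLT2i and HFpEF+TYA-018 against HFpEF+Veh, limma called 0% and 0.273% of all genes and the 2-group fits 0.0226% and 0.437%. The length offset called 0.792% and 1.39%, the robust spread 0.835% and 1.9%, and the surrogate variable 0.857% and 5.99%. Where so few genes were called, a count of 0 says little about the members. Correlated pairs numbered 35, or 36 on log2(TPM + 1).

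The signs that turned belonged to values between -0.15 and 0.18 with all libraries. Under limma the log2 fold change of Atf3 was 0.06 between the drugs, 0 in HFpEF+TYA-018 and -0.06 in HFpEF+SGLT2i against non_failing. Without the 3 libraries Atf3 was at 0.21 between the drugs and at -0.05 in HFpEF+SGLT2i against non_failing, where Cyr61 was at -0.01. With single libraries left out, HFpEF+Veh against non_failing ran from -0.14 to 0.30 for Fosb, -0.20 to 0.04 for Nr4a1 and -0.06 to 0.11 for Dusp1. In HFpEF+SGLT2i against HFpEF+Veh Dusp1 ran from -0.20 to 0.05. Between the drugs the range was -0.27 to 0.17 for Atf3, -0.21 to 0.02 for Dusp1 and -0.11 to 0 for Cyr61. In HFpEF+TYA-018 against non_failing it was -0.15 to 0.02 for Egr1, -0.08 to 0.34 for Atf3 and -0.10 to 0.03 for Cyr61. In HFpEF+SGLT2i against non_failing it was -0.13 to 0.05 for Jun, -0.05 to 0.39 for Atf3, -0.18 to 0.08 for Dusp1 and -0.04 to 0.09 for Cyr61.

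The counts over all genes moved more. HFpEF+TYA-018 against HFpEF+Veh gave 266 genes, but 520 with DESeq2, 618 without a filter, 1096 with library size alone, 824 with a surrogate variable, 58 in a 2-group fit, 38 with limma and 167 without V2530. HFpEF+SGLT2i against HFpEF+Veh gave 117, but 231 with DESeq2, 457 without a filter, 3 in a 2-group fit, 0 with limma, 15 without the 3 libraries and 2 without V2523. HFpEF+Veh against non_failing gave 433, but 670 with a surrogate variable and 724 without the 3 libraries, and 289 without V2504. The drugs against each other gave 0, but 184 with DESeq2, 14 with a surrogate variable, 5 with the length offset and up to 17 without a single library (V2570). Against non_failing limma gave 612 and 521 in place of 1017 and 888. Library size alone changed the share called higher from 43.2% to 2.28% in HFpEF+TYA-018 against HFpEF+Veh, from 15.4% to 2.68% in HFpEF+SGLT2i against HFpEF+Veh, from 54.2% to 28.5% in HFpEF+TYA-018 against non_failing and from 56.1% to 79.5% in HFpEF+Veh against non_failing. Limma changed it to 70.6% in that last comparison, to 43% in HFpEF+TYA-018 against non_failing and to 7.89% in HFpEF+TYA-018 against HFpEF+Veh. The share turned the other way in some settings. In HFpEF+TYA-018 against HFpEF+Veh it was 74.1% in the 2-group fit, 68.3% without the 3 libraries and 62.9% with a surrogate variable, but 20.4% without a filter. In HFpEF+SGLT2i against HFpEF+Veh it was 66.7% without the 3 libraries and 100% of the 3 genes in the 2-group fit, and in HFpEF+Veh against non_failing 45.9% without the 3 libraries. The cause of these moves was not tested. In the main fit the p-values set a difference between 2 group means against the spread between mice within groups, estimated over all 4 groups. The levels record 1 moment per mouse.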

Other observations

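The mean log2 CPM of the 45 tested other early response genes had an r of 0.77 with the members' mean within groups, or 0.70 without V2571. In the summed level of all 46 listed, V2571 was the highest of 38 libraries at 1730 TPM. By the same measure the 9 glucocorticoid responsive genes had an r of 0.26, or 0.03 without V2571. Their summed level was highest in V2571, at 1330 TPM. Of these 9, 2 were called higher in each of the 3 comparisons with non_failing, where 3.15% of all genes were called with vehicle, 7.39% with TYA-018 and 6.45% with Empagliflozin. Between treated and vehicle hearts 1 was called lower with TYA-018 against vehicle (1.93%) and 1 higher with Empagliflozin against vehicle (0.85%). The 12 clock genes had an r of -0.18, or -0.06 without V2571, which was at rank 36 of 38 in their summed level. In each of the 3 comparisons with non_failing 11 of 12 had lower fitted values. Of all genes, 47.7% were lower with vehicle, 49% with TYA-018 and 48.7% with Empagliflozin. In each drug group 1 clock gene was called lower, in comparison with 7.39% of all genes called with TYA-018 and 6.45% with Empagliflozin. The 8 inducible heat shock genes had an r of 0.30, or 0.40 without V2571. In each drug group 2 of 8 were called lower than in non_failing, in comparison with 7.39% and 6.45% of all genes. These r values are descriptions over 38 libraries and carry no test.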
